A study of Homo sapiens with 2 samples.

Results

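Aminoacyl-tRNA synthetases, the enzymes that join each amino acid to its transfer RNA, were followed on 2 Affymetrix arrays of the human colorectal adenocarcinoma cell line HCT15. The array labelled ARID3B knockout held RNA of HCT15 cells that received Cas9 targeted to ARID3B, which encodes a protein that binds AT-rich DNA, and the control array held RNA of HCT15 cells labelled as receiving control. Both cultures were grown in RPMI with fetal bovine serum. The labels do not say what the control cells received in place of the guide, nor whether the edited cells were cloned. The genes were taken by symbol: 17 cytosolic enzymes or subunits, and 15 mitochondrial enzymes with symbols ending in 2. All 32 had a probe set with a single gene symbol, 67 probe sets in all, out of 19775 genes on the array. Each gene was read from its brightest probe set, that with the highest mean of both arrays.

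A human cell keeps 2 sets of these enzymes, both encoded in the nucleus. The cytosolic set charges the transfer RNAs that serve cytosolic ribosomes, and part of it is held in a multisynthetase complex. The mitochondrial set is imported into the organelle and charges transfer RNAs encoded by mitochondrial DNA. Many cytosolic synthetase genes are known targets of ATF4, a transcription factor made in larger amounts when eIF2 kinases respond to amino acid shortage or misfolded protein. Sites of ATF4 with C/EBP proteins contain a C/EBP-ATF response element.

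Expression is given as RMA values in log2 units, and every difference is the knockout-labelled minus the control value on that log2 scale. Genes with both values under 4.59, the median over non-control probe sets (the floor), were left out, and 12841 remained. All 32 synthetase genes passed, with both values above the floor. There was 1 array per group, so no test and no replicate check was possible, and every difference describes these 2 arrays. In place of replicate error, a difference is set beside the spread of differences among genes of like brightness, the scaled median absolute deviation in 10 bins of mean expression (0.255 to 0.437). That spread mixes technical and biological variation.

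ARID3B itself was at 6.09 on the knockout-labelled array, against 5.12 on the control array (0.97), so that the targeted transcript went against a loss of RNA and every direction here rests on the label alone. The single probe set says nothing of an edit outside it. Of 12 markers of colon epithelium 9 were above the floor on both arrays, with EPCAM at 12.23 and 12.19 on the knockout-labelled and control arrays, while KRT20 and LGALS4 were under it on both. Of 9 measured markers of other cell types 5 were under the floor on both arrays, among them the leukocyte marker PTPRC. The leukocyte markers CD14 (6.54 with the knockout label, 6.51 in the control) and CD3E (4.87 and 4.71) were above it. The highest of the 9, the collagen gene COL1A1, was at 7.12 and 6.87. For the poly-A spike-ins, bacterial RNAs that serve as labelling controls, 24 probe sets differed by a mean of -1.19, which is 2.28-fold lower with the knockout label. Scaling the arrays on them moved every difference up alike and the median of all genes to 1.22, so that the differences given here compare a gene with the rest of its array. The part of the spike-ins in the results was not tested.

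Sequence from the start of 5 genes introduces the enzymes at both ends of the range of differences. They are the 3 highest (CARS1, AARS1 and SARS1, charging cysteine, alanine and serine) and the 2 lowest (MARS2 and HARS1, charging methionine in mitochondria and histidine in the cytosol). Each run is the RefSeq promoter of build GRCh38.p14, 250 bases before to 50 bases after the gene's start, read 5′ to 3′ on the gene's strand. Capitals mark the core of the C/EBP-ATF response element, searched as TGATGNAA on both strands. CARS1 lies on the minus strand at chr11:3057374-3057673, AARS1 on the minus strand at chr16:70289457-70289756, SARS1 on the plus strand at chr1:109213643-109213942, MARS2 on the plus strand at chr2:197705119-197705418 and HARS1 on the minus strand at chr5:140691321-140691620.
CARS1: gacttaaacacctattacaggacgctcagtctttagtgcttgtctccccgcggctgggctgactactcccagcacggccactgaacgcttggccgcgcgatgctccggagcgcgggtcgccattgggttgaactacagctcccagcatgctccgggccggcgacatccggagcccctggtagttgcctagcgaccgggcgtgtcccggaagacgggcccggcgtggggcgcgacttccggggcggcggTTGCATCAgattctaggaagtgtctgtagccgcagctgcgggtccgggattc
AARS1: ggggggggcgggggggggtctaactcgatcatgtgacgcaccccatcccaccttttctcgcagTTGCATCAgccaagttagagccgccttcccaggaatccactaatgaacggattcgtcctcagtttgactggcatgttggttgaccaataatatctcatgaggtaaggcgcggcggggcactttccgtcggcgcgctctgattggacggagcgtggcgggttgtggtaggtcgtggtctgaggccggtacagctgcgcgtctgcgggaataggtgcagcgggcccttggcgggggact
SARS1: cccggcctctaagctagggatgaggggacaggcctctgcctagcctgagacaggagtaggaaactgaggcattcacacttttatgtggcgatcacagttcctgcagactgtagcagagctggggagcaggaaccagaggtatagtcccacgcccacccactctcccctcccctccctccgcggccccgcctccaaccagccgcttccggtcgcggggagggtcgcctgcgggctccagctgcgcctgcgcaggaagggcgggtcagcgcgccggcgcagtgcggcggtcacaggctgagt
MARS2: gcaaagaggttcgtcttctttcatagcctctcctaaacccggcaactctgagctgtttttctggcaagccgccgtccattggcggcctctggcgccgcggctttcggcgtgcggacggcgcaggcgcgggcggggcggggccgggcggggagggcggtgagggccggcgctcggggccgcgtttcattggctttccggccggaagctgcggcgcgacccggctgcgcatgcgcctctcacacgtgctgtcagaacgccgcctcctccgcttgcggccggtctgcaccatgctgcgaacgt
HARS1: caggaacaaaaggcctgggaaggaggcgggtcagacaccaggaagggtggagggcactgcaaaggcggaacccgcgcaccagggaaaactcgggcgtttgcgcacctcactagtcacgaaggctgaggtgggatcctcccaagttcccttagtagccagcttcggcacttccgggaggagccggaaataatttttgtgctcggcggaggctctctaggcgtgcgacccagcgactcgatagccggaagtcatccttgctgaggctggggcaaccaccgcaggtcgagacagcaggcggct

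The core stood in CARS1 and AARS1 and in none of the other 3 windows. Across 27058 promoters of the same length 3.69% held it. Promoters of 26 of the 32 synthetase genes were searched, the other 6 not being used here, and the core was in 4 of 13 cytosolic and 1 of 13 mitochondrial ones. These 5 matches are shown with 12 bases on each side, since their genes did not differ alike between the arrays.
TARS1: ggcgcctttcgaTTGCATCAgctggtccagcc
CARS1: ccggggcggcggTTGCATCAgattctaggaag
AARS1: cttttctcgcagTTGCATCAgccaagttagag
NARS1: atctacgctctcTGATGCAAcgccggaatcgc
YARS2: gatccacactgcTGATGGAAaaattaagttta

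These 5 windows lie on the minus strand for CARS1 at chr11:3057406-3057437, AARS1 at chr16:70289674-70289705, NARS1 at chr18:57621803-57621834 and YARS2 at chr12:32756075-32756106, and on the plus strand for TARS1 at chr5:33440955-33440986. The match began 2 bases before the start of CARS1, 187 before that of AARS1 and 197 before that of YARS2. In NARS1 it began at base 15 and in TARS1 at base 3 of the transcribed part. The differences of these genes ran from 0.99 and 0.82 in CARS1 and AARS1, through 0.02 in NARS1, to -0.12 in TARS1 and -0.27 in YARS2. The match in YARS2 is not letter for letter that of the other 4 genes, and among those 4 the differences ran from -0.12 to 0.99. A match is a stretch of letters and not a bound site.

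Other motifs were searched in the same windows on both strands. CCAAT was in 5 of 13 cytosolic and 8 of 13 mitochondrial promoters, against 35.7% of all promoters. CACGTG, the E-box of MYC, was in 0 of 13 cytosolic and 3 of 13 mitochondrial promoters, against 7.38% of all. TATAAA was in 1 cytosolic promoter, that of GARS1, and in no mitochondrial one, against 12.0% of all.

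Among the cytosolic enzymes CARS1, AARS1 and SARS1 were 1.69 to 1.98-fold higher on the knockout-labelled array, and most others differed little. Of the 17 genes 13 lay above 0, with a median difference of 0.13, against a median of 0.04 and 52.9% of genes above 0 over all 12841. At 1.5-fold 3 of 17 (17.6%) were higher and 0 lower, against 5.83% higher and 10.5% lower among all genes compared, and no synthetase gene reached 2-fold, which 1.05% of all genes did upward and 3.79% downward. At a lower threshold of 0.32 on the log2 scale 6 of 17 were higher and 1 lower, against 18.5% and 20.0% of all genes. The difference was larger than the spread of like-bright genes for 7 of 17, where 34.8% of all genes passed theirs. The median of the cytosolic genes stayed above 0 under every scaling tried, at 0.04 when scaled on ribosomal protein genes.

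CARS1, the cytosolic cysteine enzyme, had the largest difference of the 32 genes. It was at 10.86 on the knockout-labelled array and 9.87 on the control array, which differ by 0.99 or 1.98-fold. Among the 1284 genes of its brightness bin 0.701% were at least as high. Its other probe sets above the floor differed by 0.83 and 0.85, so that all 3 pointed the same way.

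AARS1, the alanine enzyme, was at 9.61 on the knockout-labelled array and 8.79 on the control array, which differ by 0.82 or 1.76-fold in its only probe set. In its bin 1.87% of genes were at least as high. SARS1, which joins serine to its own transfer RNA and to that of selenocysteine, was at 10.68 on the knockout-labelled array and 9.93 on the control array, which differ by 0.75 or 1.69-fold. That value holds for its brightest probe set, in a bin where 1.17% of genes were as high, and its dimmer probe set differed by 0.16.

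A further 3 cytosolic genes were higher by more than the spread of their bin but by less than 1.5-fold. YARS1, the tyrosine enzyme, was at 10.22 on the knockout-labelled array and 9.73 on the control array (0.49, or 1.41-fold), and its dimmer probe set differed by 1.07. WARS1, the tryptophan enzyme, was at 9.36 and 8.95 on the knockout-labelled and control arrays, a difference of 0.41, with 0.21 in its other probe set. GARS1, whose gene makes both the cytosolic and the mitochondrial glycine enzyme, was at 11.08 and 10.67, also a difference of 0.41, from 1 probe set.

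HARS1, the histidine enzyme, was the only cytosolic gene lower by more than the spread of its bin. It was at 8.62 on the knockout-labelled array and 9.09 on the control array, which is -0.47 or 1.39-fold lower, from 1 probe set, and 14.0% of the genes in its bin were at least as low. With arrays scaled on the poly-A spike-ins the value was 0.71. HARS2, its mitochondrial counterpart, is encoded head to head with it. In the RefSeq windows the 2 genes start 85 bases apart on opposite strands and share 184 bases of promoter. HARS2 was at 7.97 on the knockout-labelled array and 7.80 on the control array, which differ by 0.16, below the spread of 0.388 in its bin. The genes of this pair thus pointed in opposite directions, by amounts of which only that of HARS1 passed the spread.

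**Figure D1:**
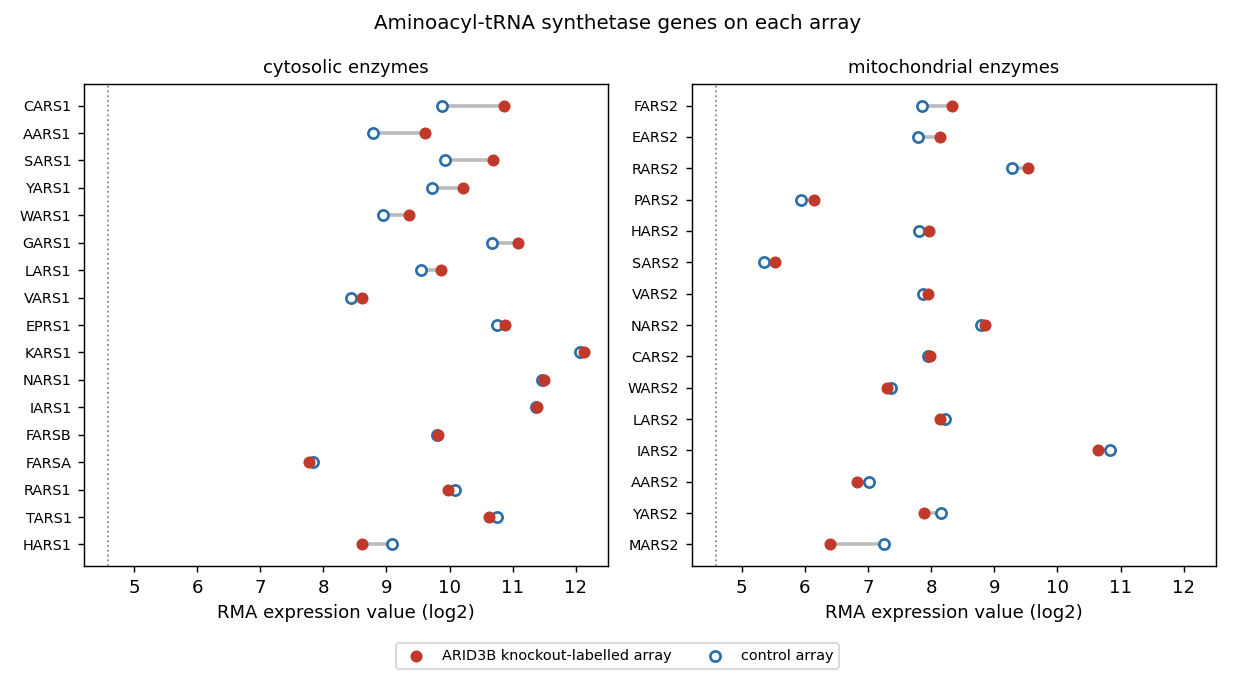
Log2 RMA value of the brightest probe set of each synthetase gene on the ARID3B knockout-labelled array (filled) and the control array (open), cytosolic enzymes left and mitochondrial enzymes right, ordered by difference. All 32 genes lie right of the dotted floor of 4.59, and the widest gaps are those of CARS1, AARS1 and SARS1 (knockout-labelled higher) and MARS2 (knockout-labelled lower).

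The other 10 cytosolic genes differed by less than the spread of their bins. LARS1, the leucine enzyme, also known as a leucine sensor for mTORC1, was at 9.86 on the knockout-labelled array and 9.55 on the control array (0.31), and 3 of its 4 probe sets were higher. VARS1, for valine, differed by 0.18 and EPRS1, which joins both glutamate and proline to their transfer RNAs, by 0.13, each with all probe sets higher. KARS1, whose gene makes the lysine enzyme of both compartments, differed by 0.06, NARS1 for asparagine by 0.02 and IARS1 for isoleucine by 0.02. RARS1, for arginine, differed by -0.11.

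In FARSB and TARS1 the probe sets of the same gene disagreed. FARSA and FARSB are the subunits of the cytosolic phenylalanine enzyme and differed by -0.06 and 0.02. A dimmer probe set of FARSB stood at 4.53 on the knockout-labelled array and 5.66 on the control array, which differ by -1.13 against a value under the floor. Both this probe set and the brightest one of FARSB can match several transcripts. TARS1, for threonine, was at 10.62 and 10.74 on the knockout-labelled and control arrays in its brightest probe set (-0.12), while its dimmer probe set was at 5.84 and 4.87 (0.97). TARS3, a related threonine enzyme outside the 32, was at 6.38 and 7.03 on these arrays (-0.65), with -0.05 in its other probe set. Over all cytosolic genes 25 of 32 probe sets above the floor were higher. Of 11 genes with at least 2 such probe sets 8 had them all in the same direction, where 62.6% of 6297 such genes on the array did. The count of 25 stands without a background, since no share of higher probe sets over the whole array is given. Some of these probe sets also belong to the same gene.

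Read by role, the 3 cytosolic genes past 1.5-fold lay outside the multisynthetase complex. The 5 measured enzymes of the complex (EPRS1, IARS1, LARS1, RARS1 and KARS1) had a median of 0.06, with 4 above 0 and 0 past 1.5-fold, and the 12 others a median of 0.30, with 9 above 0 and 3 past it. With 5.83% of all genes that much higher and 52.9% above 0, a count of 0 among 5 genes says little. Scaled on ribosomal protein genes these medians were -0.04 and 0.20. Without GARS1 and KARS1 they were 0.08 and 0.18. Over second brightest probe sets they were 0.26 and 0.18, in the opposite order. That setting lost the genes with a single probe set, IARS1 and RARS1 in the complex and AARS1, GARS1, HARS1 and NARS1 outside it. The split thus depends on the probe sets and genes read. The scaffold AIMP1 was at 10.01 on the knockout-labelled array and 10.12 on the control array (-0.11). The 12 cytosolic genes listed as known ATF4 targets had a median of 0.36, with 11 (91.7%) above 0 and 3 (25.0%) past 1.5-fold, against 52.9% and 5.83% of all genes. That median was 1.55 when scaled on poly-A spike-ins. It was 0.25 over second brightest probe sets, which AARS1, GARS1, IARS1 and NARS1 lack. Without probe sets able to match several transcripts it was 0.75. That setting lost EPRS1, GARS1, IARS1, LARS1 and VARS1 and read YARS1 from its dimmer probe set (1.07), so these 2 medians are not of the same genes. The other 5 (FARSA, FARSB, HARS1, KARS1 and RARS1) had a median of -0.06 with 2 above 0, a sign that turned only when scaled on poly-A spike-ins (1.12). The ATF4 list was drawn with results of these arrays known, so its direction is a description. By catalytic fold, the 16 class I genes had a median of 0.06 and the 15 class II genes 0.07.

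Mitochondrial synthetase genes differed little and in both directions. Of the 15 genes 9 lay above 0 and 6 below, where 45.1% of all genes were below, with a median of 0.07, a value that was -0.02 when scaled on ribosomal protein genes. At 1.5-fold 0 were higher and 1 lower (6.67%), no more than the background of 5.83% and 10.5%. At 0.32 on the log2 scale 2 were higher and 1 lower, against 18.5% and 20.0% of all genes. Of the 15 genes 2, FARS2 and MARS2, passed the spread of their bins, where 34.8% of all genes did. Of 25 mitochondrial probe sets above the floor 14 were higher, and 4 of 7 genes with at least 2 such probe sets had them all in the same direction. The count of 14 likewise stands without a background share, and some of its probe sets belong to the same gene.

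MARS2, which charges both the initiator and the elongator methionine transfer RNA of mitochondria, was at 6.40 on the knockout-labelled array and 7.25 on the control array. The difference was -0.86 or 1.81-fold lower, from a single probe set, and 6.54% of the genes in its bin were at least as low. Its sign turned when scaled on poly-A spike-ins (0.33). FARS2, the mitochondrial phenylalanine enzyme, was at 8.32 on the knockout-labelled array and 7.85 on the control array (0.47), with 0.21 in its other probe set. In its bin 11.5% of genes were at least as high.

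EARS2, the glutamate enzyme, followed at 8.14 and 7.80 on the knockout-labelled and control arrays (0.34), with 0.01 and -0.04 in its other probe sets above the floor. RARS2, for arginine, differed by 0.25 and had all 3 of its probe sets above the floor higher, up to 0.46. PARS2 (proline) differed by 0.20, SARS2 (serine) by 0.16, VARS2 (valine) by 0.09, NARS2 (asparagine) by 0.07 and CARS2 (cysteine) by 0.03. On the lower side YARS2 (tyrosine) differed by -0.27, AARS2 (alanine) by -0.20 in its brightest and -0.24 in its other probe set, and IARS2 (isoleucine) by -0.19. LARS2 (leucine) and WARS2 (tryptophan) were at -0.08 and -0.06. None of these genes passed the spread of its bin.

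**Figure D2:**
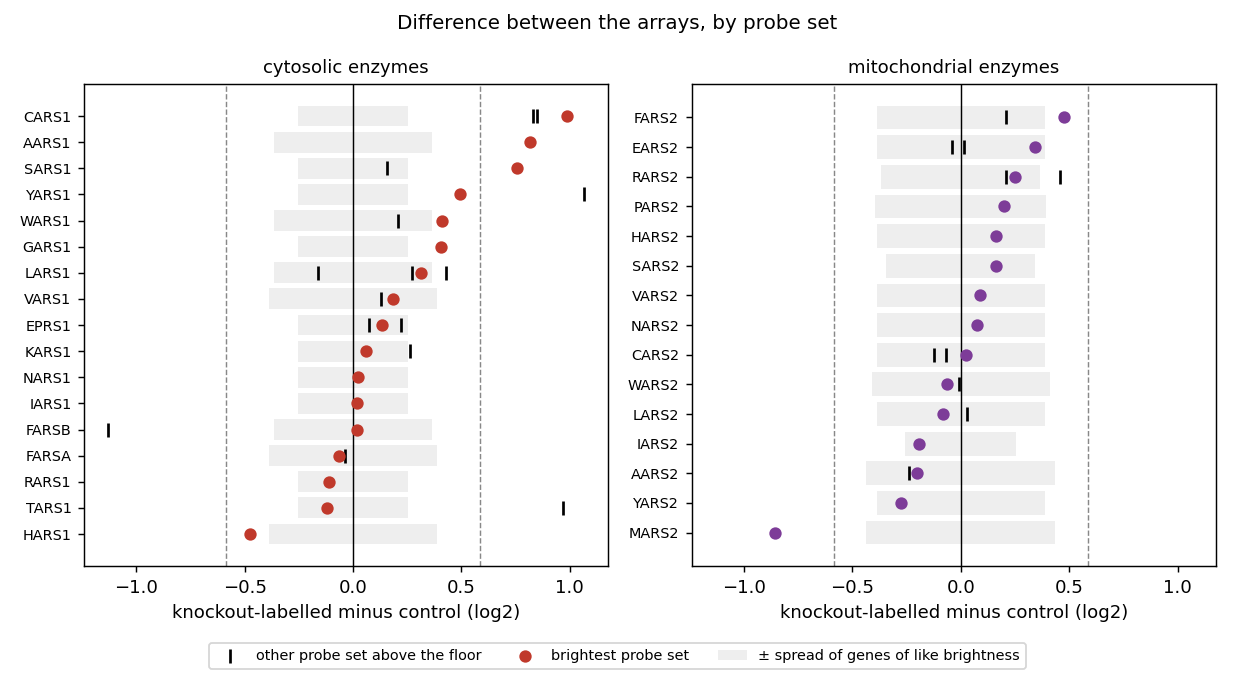
Knockout-labelled minus control difference (log2) of each gene's brightest probe set (dots) and of its other probe sets above the floor (ticks), over the spread of genes of like brightness (grey bars, ± scaled median absolute deviation). Dashed lines mark 1.5-fold, past which lie the brightest probe sets of CARS1, AARS1, SARS1 and MARS2, and ticks far from their dots mark SARS1, YARS1, FARSB and TARS1.

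Setting the compartments side by side, the cytosolic median exceeded the mitochondrial one by 0.06, a gap small beside the spread within either set (scaled median absolute deviation 0.358 and 0.233). When probe sets able to match several transcripts were dropped, which left 11 cytosolic genes, the gap was -0.01, and over second brightest probe sets of 11 and 7 genes it was 0.21. No separation of the sets as wholes is read from these values. By rank, the 4 highest cytosolic genes (0.49 to 0.99) lay above the highest mitochondrial gene, FARS2 (0.47). Of all genes compared 8.84% were at least as high as YARS1, the lowest of those 4. YARS1 (0.49) is close to FARS2, and the other probe set of SARS1 differed by 0.16. The order was seen after ranking the same values, so no difference between the compartments is read from it.

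Enzymes that charge the same amino acid were also compared in pairs. For 11 amino acids each compartment had its own gene, and the cytosolic enzyme had the higher difference in 8 of them, with a median gap of 0.40. The gap was 1.02 for alanine, 0.96 for cysteine, 0.77 for tyrosine and 0.59 for serine. It was 0.47 for tryptophan and 0.40 for leucine, where WARS2 and LARS2 lay just below 0. For isoleucine and valine it was 0.21 and 0.09, and for asparagine -0.05. Arginine (-0.36) and histidine (-0.64) ran the other way. For phenylalanine both cytosolic subunits lay below FARS2, with gaps of -0.54 for FARSA and -0.46 for FARSB. EPRS1 lay below EARS2, with a gap of -0.21, and below PARS2, with a gap of -0.07. The pairs thus varied by amino acid. Each gap is the cytosolic minus the mitochondrial difference, so a high cytosolic value widens it by construction. The pairs were compared on brightest probe sets only. In its other probe set SARS1 differed by 0.16, beside 0.16 for SARS2.

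**Figure D3:**
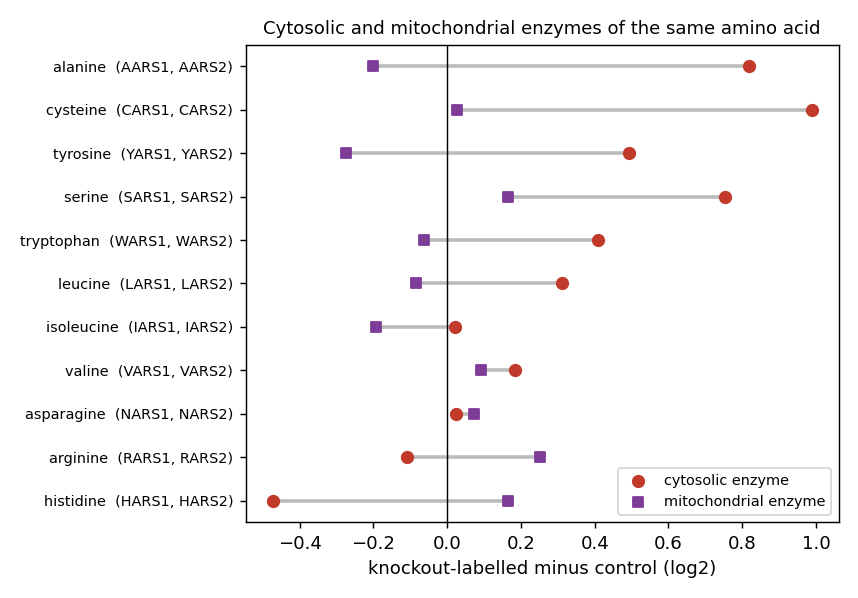
Knockout-labelled minus control difference (log2) of the cytosolic enzyme (circles) and the mitochondrial enzyme (squares) for the 11 amino acids with 1 gene each, ordered by the gap between them. The cytosolic enzyme lies right of its partner for 8 amino acids, most for alanine (1.02), and left of it for histidine (-0.64), arginine and asparagine.

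Genes that act beside the synthetases were read from lists drawn for this comparison. Earlier results of these data were known when the lists were drawn, so their counts and medians are descriptions. Beside them stand the 52.9% of all genes that lay above 0, the 5.83% at least 1.5-fold higher and the 10.5% as much lower. ATF4 was at 12.24 on the knockout-labelled array and 11.43 on the control array (0.81, or 1.75-fold). The list of its pathway and effectors, in which ATF4 itself is counted, had 12 of 12 compared genes above 0 and a median of 1.04. Of these genes 9 (75.0%) were past 1.5-fold, ATF4 included, against 5.83% of all genes. They were led by the mTORC1 inhibitor DDIT4 (3.85), the transcription factor DDIT3 (3.39), the glutathione-degrading CHAC1 (2.63) and SESN2 (1.78), an inhibitor of mTORC1 during leucine shortage. No synthetase differed as much as these 4. The eIF2 kinase list had a median of 0.39 with 7 of 8 above 0. In it the kinase EIF2AK4, which binds uncharged transfer RNA, was at 8.04 and 7.82 on the knockout-labelled and control arrays (0.22, and 0.66 as the mean of its probe sets), and PPP1R15A, a phosphatase subunit that reverses eIF2 phosphorylation, differed by 1.43. EIF2AK1 differed by 0.51, but by -0.35 as the mean of its probe sets. As such means EIF2AK2 went from 0.34 to -0.04 and EIF2AK3 from 0.45 to 0.20, so the median and count of this list depend on the probe set.

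Among genes that supply amino acids, the synthesis list had a median of 0.33, with 11 of 14 (78.6%) above 0, against 52.9% of all genes. At 1.5-fold 3 (21.4%) were higher and 1 (7.14%) lower, against 5.83% and 10.5% of all genes. ASNS, which makes asparagine, differed by 1.26, PHGDH, the entry enzyme of serine synthesis, by 0.72 and GOT1, an aspartate aminotransferase, by 0.68, while the proline enzyme PYCR3 differed by -0.76. For the amino acids of ASNS and PHGDH the synthetases NARS1 and SARS1 differed by 0.02 and 0.75. Amino acid transporters had a median of 0.19, with 6 of 11 (54.5%) above 0, close to the 52.9% of all genes. The cystine importer SLC7A11 (0.96), listed here beside the cysteine enzyme CARS1, and the glutamine transporter SLC38A2 (0.59) were highest. The lysosomal transporter SLC36A1 was lowest at -1.10, and its probe sets averaged -0.55.

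Lists for the making, export and use of transfer RNA in the nucleus and cytosol had medians near or below 0. The list of RNA polymerase III, which makes transfer RNA, had a median of -0.02 with 8 of 17 above 0, and its outermost genes were POLR3B (-1.49, with a probe set mean of -0.62), POLR3C (-0.72), BRF2 (0.58) and GTF3C3 (0.50, with a probe set mean of -0.13). Export and editing genes had a median of -0.11 with 2 of 8 above 0. XPOT, the exporter of transfer RNA from the nucleus, was at 9.90 and 9.60 on the knockout-labelled and control arrays (0.30), while XPO5 (-0.76) and the deacylase DTD2 (-0.56), which removes wrongly joined amino acids, were lower. Elongation factors that carry charged transfer RNA to the ribosome or move it there were near 0, with a median of 0.05 and EEF2 highest at 0.23.

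In mitochondria, genes that work on the same transfer RNAs differed in both directions. Modification and processing genes had a median of -0.18, with 8 of 14 below 0 and 3 past 1.5-fold lower, against the 10.5% of all genes that were as low. TRMT10C, a subunit of mitochondrial RNase P, was at 8.57 on the knockout-labelled array and 9.90 on the control array (-1.33), and TRNT1, which adds the CCA end that synthetases charge in both compartments, was at 8.04 and 9.01 (-0.98). TRMU (-0.65) and PUS1 (-0.49) modify bases of transfer RNA. Translation factors had a median of 0.11, with MTRFR at 0.64, the elongation factors TUFM at 0.46 and GFM1 at -0.56, and MTFMT, which formylates the methionine joined by MARS2, at 0.11. Mitochondria have no glutamine enzyme of their own and convert the product of EARS2 with a 3-subunit amidotransferase. Its subunits differed by 0.35 (GATB), 0.25 (QRSL1, with a probe set mean of -0.18) and -0.83 (GATC), beside 0.34 for EARS2.

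**Figure D4:**
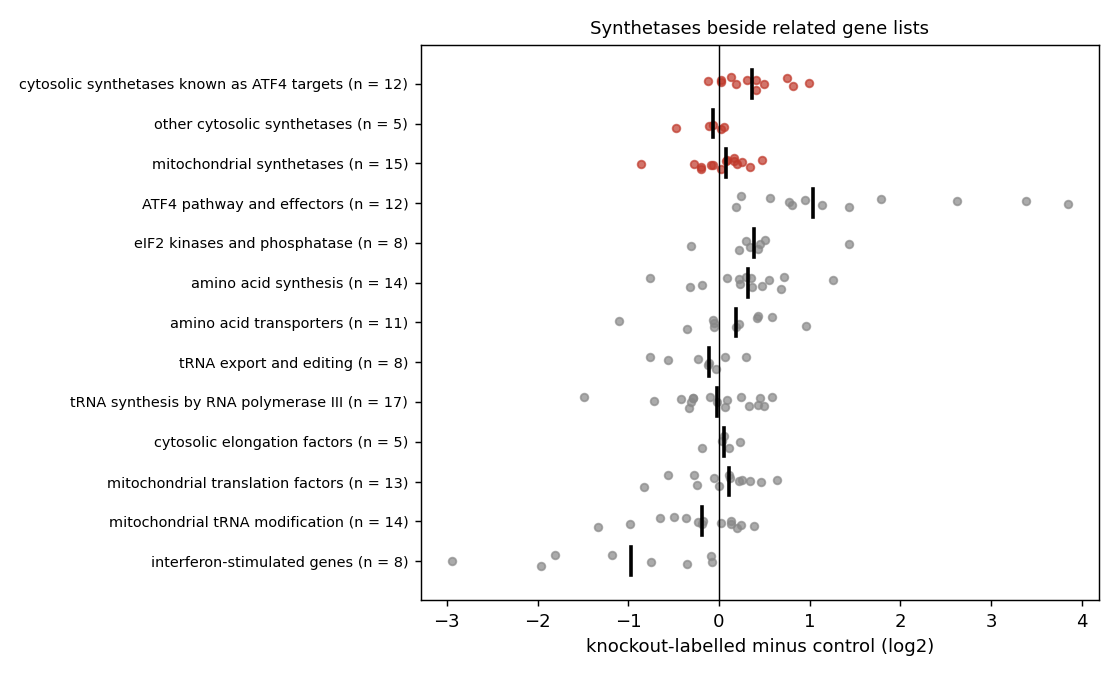
Knockout-labelled minus control difference (log2) of each compared gene (dots, shifted at random up or down) in the synthetase lists (red) and related lists (grey), with list medians as black bars. The medians run from -0.97 for interferon-stimulated genes to 1.04 for the ATF4 list, with 0.36 for cytosolic synthetases known as ATF4 targets, -0.06 for the other cytosolic and 0.07 for the mitochondrial synthetases.

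WARS1 belongs to both the synthetases and the genes induced by interferon, and it is set beside both. The 8 compared interferon-stimulated genes were all below 0, with a median of -0.97, where 45.1% of all genes were below 0. The interferon list too was drawn with earlier results of these data known, so its direction is a description. The lowest were IFI44 (-2.95), IFIT3 (-1.96), RSAD2 (-1.80) and IFIT1 (-1.18). In the same list IRF1 (-0.09) and IDO1 (-0.08) were near 0. Both probe sets of WARS1 were higher (0.41 and 0.21). Among genes next to synthetases, looked up after the values were seen, GARS1-DT, a non-coding gene that starts beside GARS1 on the opposite strand, was at 6.52 and 6.45 on the knockout-labelled and control arrays (0.07) in its brightest probe set, with 0.29 to 0.50 in 4 dimmer ones above the floor. TERF2IP and ADAT1, on either side of KARS1, differed by 0.98 and -0.61 where KARS1 differed by 0.06. MRPS12, next to SARS2, differed by -0.15 where SARS2 differed by 0.16. These neighbours are examples, and the others are not given.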

How the data were processed

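Total RNA of 2 HCT15 cultures was measured on 1 Affymetrix array each. The authors deposited log2 values. The submitters' processing notes name RMA without a version, and do not say which arrays were normalised together. Quantile normalisation, a step of RMA, removes differences in total RNA between arrays, and RMA compresses differences of dim genes.

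Of 54613 non-control probe sets 41091 had 1 gene symbol in the platform annotation, 1801 several and 11721 none, and only the first kind was used. MARS1, QARS1 and TARS2 are not analysed here, and some items are not reported here. Gene choice, floor and differences were computed with Python 3.11.15, pandas 2.3.3 and statsmodels 0.14.6, tested on simulated data. No test was possible with 1 array per group. Thresholds are folds, and precision is limited by having 2 arrays. The members and the 22 gene lists were chosen with earlier results of these data known. Named genes are all members, ARID3B, up to 4 members of each related list with the largest differences, and ATF4, EIF2AK4, XPOT and AIMP1. Genes named beyond these were chosen after their values were seen. Promoters came from RefSeq (GRCh38.p14). Alternatives changed the floor, the probe set, the scale (intensity trend with loess span 0.3, medians, ribosomal protein genes, poly-A spike-ins), 64 linear units added, and the fold.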

Additional observations from a re-analysis of the deposited data

How the results depend on the processing

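No paired analysis was possible because each group had 1 array. With arrays scaled on poly-A spike-ins the cytosolic median was 1.32 and the mitochondrial 1.26, and MARS2 turned to 0.33. At that scaling 17 cytosolic and 14 mitochondrial genes were at least 1.5-fold higher and 0 mitochondrial lower. Of all 12841 genes 11548 were as much higher and 97 lower, so these counts follow the whole array. The poly-A scaling adds the same amount to every gene and left the gap between the compartments at 0.06. Over second brightest probe sets (11 cytosolic and 7 mitochondrial genes) the gap was 0.21. There 1 cytosolic and 0 mitochondrial genes were at least 1.5-fold lower, against 759 of 6297 genes on the array. With 64 linear units added 0 mitochondrial genes were at least 1.5-fold lower, against 602 of 12843 genes. At the lower fold threshold (0.32 on the log2 scale) 6 cytosolic and 2 mitochondrial genes were higher and 1 cytosolic lower, against 18.5% higher and 20.0% lower among all genes. At 2-fold 0 cytosolic genes were higher and 0 mitochondrial lower, against 1.05% higher and 3.79% lower among all genes. Except for the poly-A scaling, 9 cytosolic and 6 mitochondrial genes stayed above 0 in all alternatives that measured them, 3 and 4 below, and 5 and 5 changed sign. No share of all genes that kept their sign is given. CARS1 ranged from 0.66 to 1.03, AARS1 from 0.72 to 0.86, SARS1 from 0.16 to 0.79 and MARS2 from -0.95 to -0.55. Changing the floor left each gene's value as it was, and most scalings moved all genes alike. AARS1 and MARS2 have a single probe set, so the probe set alternatives could not move them and their ranges are no measure of precision. Over the same 12841 genes, ribosomal scaling took the count past 1.5-fold upward from 749 to 489. The higher floor and the mean of probe sets also changed the gene total, so their raw counts are not comparable with those reported. With the higher floor 898 of 8194 genes passed 1.5-fold downward, beside 1349 of 12841 as reported. With the mean of probe sets 495 of 11482 genes passed it upward, beside 749 of 12841. Single arrays, and probe sets that disagree, limit what these values show.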
